A study of Rattus norvegicus with 30 samples.

Results

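Messenger RNA of calcineurin and of the calcium-dependent NFAT transcription factors was followed in primary cultures from the inner medullary collecting duct of the rat at changing osmolality. Its members were found by gene symbol alone. The list holds the catalytic subunits Ppp3ca, Ppp3cb and Ppp3cc, the regulatory subunit Ppp3r1, the calcineurin regulators Rcan1 and Rcan2, and the factors Nfatc1, Nfatc2, Nfatc3 and Nfatc4. Of these 10 symbols 9 had a probe set with that symbol alone among the 14506 genes measured, and Nfatc1 was not analysed here. Where a gene had several such probe sets, the one with the highest mean over all 30 arrays was used, which applied to Ppp3r1.

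The study compared 10 groups of 3 arrays each. Cells were kept at 300, 600 or 900 mosmol/kg (steady 300, steady 600 and steady 900), were moved from 300 to 600 mosmol/kg for 3, 12, 24 or 48 h, were moved from 600 to 900 mosmol/kg for 12 or 24 h, or were returned from 900 to 300 mosmol/kg for 24 h. Cyclosporin A at 5 µM, an inhibitor of calcineurin, stands in the treatment field of all 30 samples, but no title carries it, so which cultures were given it, and for how long, is not settled by the labels. Every comparison below takes the cultures as treated alike, and no group is labelled as free of the drug. Nor is it stated whether replicates were separate cultures or animals, so the p-values reflect only the scatter among these arrays, part or all of which may be technical.

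Calcineurin is a phosphatase that calcium and calmodulin switch on. It removes phosphates from cytoplasmic NFAT proteins, which then enter the nucleus and act on target genes until kinases phosphorylate them again and they are exported. Cyclosporin A blocks the enzyme in complex with cyclophilin A, and Rcan proteins bind and restrain it. Rcan1 is itself a known NFAT target, so it is often read as a feedback gene of the pathway. Control of calcineurin and NFAT is exerted mostly on the proteins, by calcium, phosphorylation and location, none of which an expression array measures.

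Values are log2 signals from RMA, the robust multi-array average, as the authors computed it, where 1 unit is a doubling. A change is a difference of 2 group means ± its standard error (SE), with n = 3 arrays a side. Groups were compared with limma over all 14506 genes, with Benjamini-Hochberg adjustment of the p-values over all of them, and "rose" or "fell" is used for an adjusted p below 0.05. Comparisons that name the same steady culture share its 3 arrays.

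All 30 arrays resembled an array of their own group most closely, with correlations of 0.991 to 0.998 within groups. The replicate 3 array at 3 h and the replicate 9 array at 12 h after the 600 to 900 step stood further from their partners than those stood from each other. Their median absolute differences over genes were 0.205 and 0.198 against 0.122 at 3 h, and 0.200 and 0.194 against 0.097 at 12 h. Changes of the 9 genes that rest on these arrays are also given without them. Over 7 epithelial markers the summed level stayed high, between 13.70 and 14.25 in every array, but single markers moved. At 12 h after the 600 to 900 step 6 of the 7 were lower than in steady 600 (25.3% of all genes) and 0 higher (12.5%). Cldn8 ranged from 5.23 to 9.17 between group means. Principal cell markers summed to 8.84 to 9.13 in steady 300 and to 13.90 to 14.01 in steady 900. There 8 of the 10 were higher and 0 lower (20.2% and 22.3% of all genes). Aqp2, the vasopressin-regulated water channel, ranged from 5.61 to 12.04 between group means. Of the same list Scnn1b (4.57 to 5.00), Scnn1g (4.62 to 5.05) and Hsd11b2 (5.26 to 5.82) were low in every group mean.

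Markers of other cells moved with osmolality as well. Over the 10 fibroblast markers the summed level was 13.93 to 13.97 in steady 300, 13.54 to 13.76 in steady 600 and 11.78 to 11.87 in steady 900. Over 11 leukocyte markers it was 12.73 to 12.83, 10.77 to 10.87 and 10.44 to 10.56 in the same cultures. Over 6 endothelial markers it was 10.64 to 10.68, 10.94 to 11.02 and 11.14 to 11.27, but single markers split. In steady 900 against steady 300, 2 of the 6 were higher and 2 lower (20.2% and 22.3% of all genes). The summed level was 9.96 to 10.08 at 12 h and 10.27 to 10.36 at 24 h after the 300 to 600 step. At both times 5 of the 6 were lower than in steady 300 (22.6% and 13% of all genes). Of the 6, 5 were also lower at 12 h after the 600 to 900 step than in steady 600 (25.3% of all genes). Of the defining markers, Cd3e (3.33 to 3.67) and Lum (2.71 to 2.90) were dim in every group mean, while Col1a1 ranged from 7.96 to 11.37 and Ptprc from 5.09 to 7.25. In such bulk samples fewer cells of a type and less RNA per cell cannot be told apart, and the part of these cells in the results below was not tested.

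Among the 9 genes, Nfatc3 and Nfatc4 moved over the widest range and Nfatc2 over the narrowest. The gap between the lowest and highest group mean was 1.17 for Nfatc3, 1.11 for Nfatc4, 0.93 for Rcan2, 0.81 for Ppp3r1, 0.65 for Rcan1, 0.55 for Ppp3ca, 0.36 for Ppp3cc, 0.32 for Ppp3cb and 0.23 for Nfatc2. An F test in limma for any difference among the 10 groups called 6 of the 9, against 73.7% of all genes. It called Ppp3ca, Ppp3r1, Rcan1, Rcan2, Nfatc3 and Nfatc4. The adjusted p was 0.117 for Ppp3cb, 0.0754 for Ppp3cc and 0.479 for Nfatc2.

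**Figure D1:**
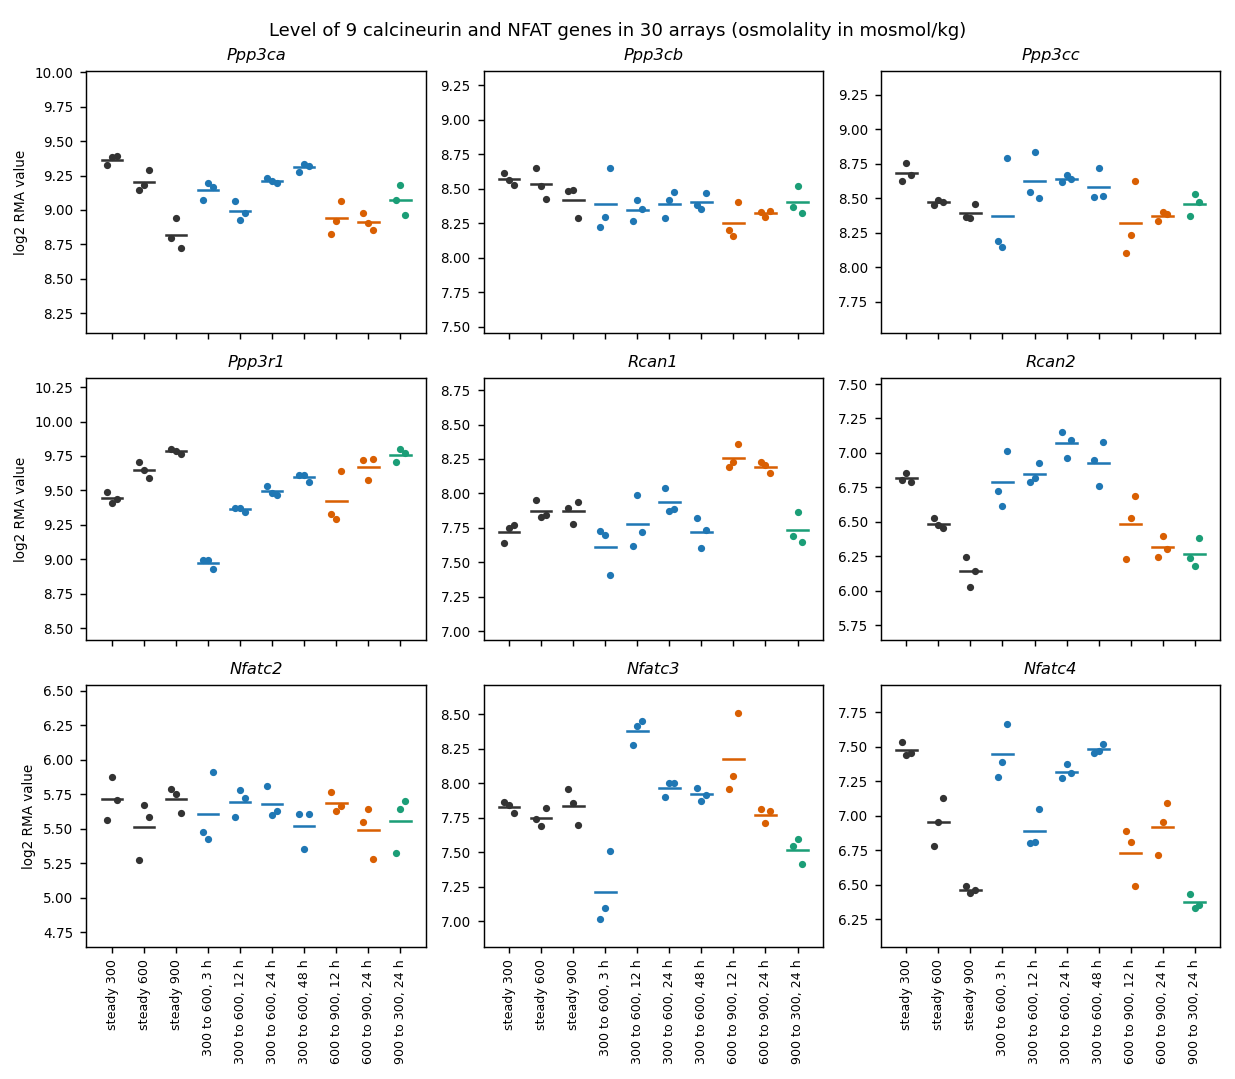
Log2 RMA value (vertical axis) of the 9 genes in each of the 10 groups (horizontal axis), with a point per array and a bar at the group mean. Nfatc4 is lowest in steady 900 and after the return, and Nfatc3 is lowest at 3 h and highest at 12 h after the 300 to 600 step.

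The calls were counted by comparison. In steady 600 against steady 300, 1 gene rose, Ppp3r1 (13.7% of all genes rose), and 2 fell, Rcan2 and Nfatc4 (13.4% of all). In steady 900 against steady 300, 1 gene rose, Ppp3r1 (20.2% of all), and 3 fell, Ppp3ca, Rcan2 and Nfatc4 (22.3% of all). Steady 900 against steady 600 had 0 genes higher (11.3% of all) and 3 lower, Ppp3ca, Rcan2 and Nfatc4 (12.9% of all), with 3 genes at an unadjusted p below 0.05 in limma, all of them these. The median change over the 9 genes was −0.16, −0.15 and −0.07, against 0.01, 0.00 and −0.01 over all genes.

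After the 300 to 600 step the calls stood at 3 h and 12 h, with none at 24 h and 48 h with the deposited scaling. At 3 h, 0 genes rose (12.1% of all) and 4 fell, Ppp3ca, Ppp3cc, Ppp3r1 and Nfatc3 (29.5% of all), with 4 at an unadjusted p below 0.05 in limma. At 12 h, 1 rose, Nfatc3 (11.9% of all), and 2 fell, Ppp3ca and Nfatc4 (22.6% of all). At 24 h limma called 0 genes higher (9.4% of all) and 0 lower (13% of all), with 2 at an unadjusted p below 0.05. At 48 h it called 0 higher (9.57% of all) and 0 lower (12% of all), and 0 had an unadjusted p below 0.05. The median change over the 9 genes was −0.18 at 3 h, −0.05 at 12 h, −0.04 at 24 h and 0.00 at 48 h, against −0.04, −0.01, 0.01 and 0.01 over all genes. These medians hold for the deposited scaling. The 3 h median is the value of Ppp3cb, which ran from −0.31 to 0.01 over the alternative runs.

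After the 600 to 900 step at 12 h, 2 genes rose, Rcan1 and Nfatc3 (12.5% of all), and 3 fell, Ppp3ca, Ppp3cb and Ppp3r1 (25.3% of all). At 24 h, 1 rose, Rcan1 (11.2% of all), and 1 fell, Ppp3ca (14.7% of all). On return to 300 mosmol/kg, set against steady 900, 1 rose, Ppp3ca (19.3% of all), and 1 fell, Nfatc3 (18.5% of all). The counts are not read as particular to the set. Of the 90 tests in these 10 comparisons 26 were called (28.9%, against 31.5% of the tests of all genes), 7 of them upward and 19 downward (73.1% downward, against 58.4%). In 24 of the 26 the arrays of the groups did not overlap (92.3%, against 96.5% of all calls).

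Scaling moved some of these splits between higher and lower genes. Of all genes called at 3 h, 70.9% were lower as deposited, 58.3% after quantile normalization and 59.1% after cyclic loess. At 12 h after the 600 to 900 step the shares were 67.0%, 54.3% and 55.8%, and 55.1% with arrays centred on their medians. Centring took the share from 56.7% to 46.0% at 24 h after that step and from 56.9% to 46.9% for 48 h against steady 600. Between 12 h and 3 h it went from 43.6% to 55.1% with cyclic loess, between 24 h and 12 h after the 600 to 900 step from 35.3% to 46.6% with quantile normalization, and for the difference between the steps at 12 h from 54.0% to 37.5% with centring.

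**Figure D2:**
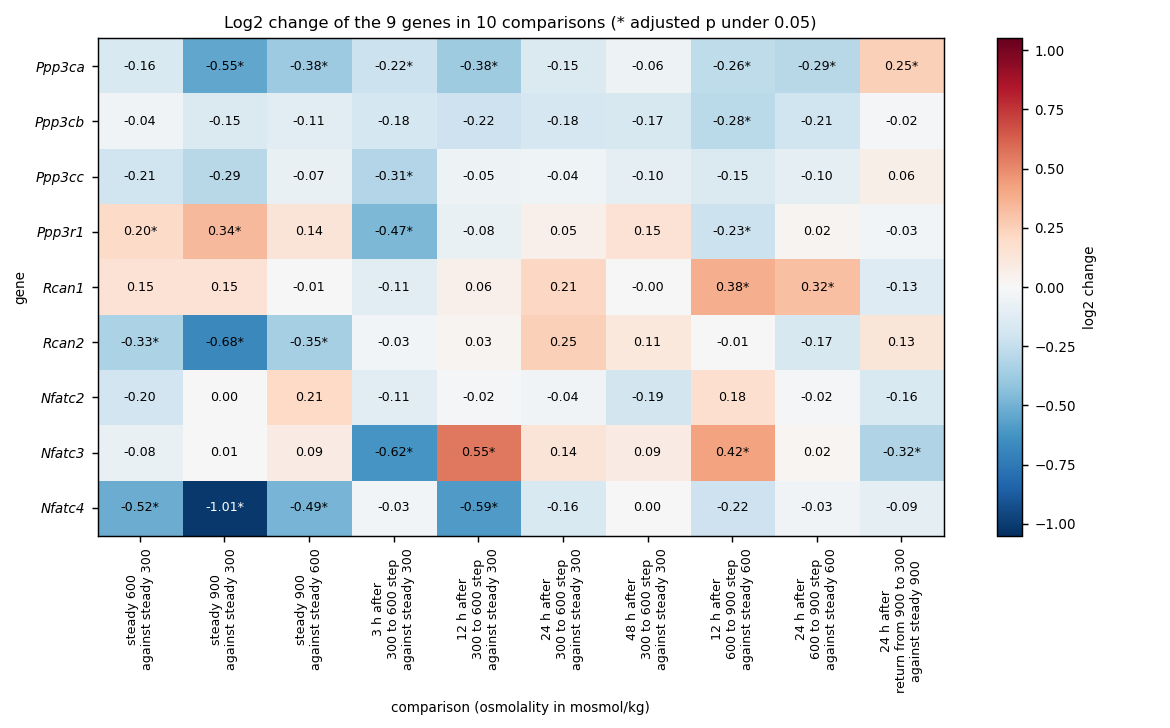
Log2 change (colour and printed value) of the 9 genes (vertical axis) in 10 comparisons (horizontal axis, osmolality in mosmol/kg), with an asterisk where the adjusted p was below 0.05. Ppp3cb carries negative values throughout and Ppp3ca, Ppp3cc and Nfatc4 nearly throughout, and the 24 h and 48 h times after the 300 to 600 step carry no asterisk.

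The catalytic subunits hold the phosphatase site of calcineurin. Among them Ppp3ca, the alpha isoform, was the one that moved in most comparisons, with 1 rise and 6 falls in 10. Its 3 arrays read 9.32, 9.39 and 9.39 in steady 300, 9.14, 9.18 and 9.29 in steady 600 and 8.80, 8.94 and 8.72 in steady 900. Every steady 900 array lay below every array of the other steady cultures, which did not overlap either. Ppp3ca fell by 1.46-fold from steady 300 to steady 900, a change of −0.55 ± 0.08 (95% interval −0.70 to −0.39, adjusted p = 4.97e-07 in limma). From steady 600 to steady 900 it changed by −0.38 ± 0.08 (adjusted p = 2.29e-04 in limma). The change between steady 300 and steady 600 was −0.16 ± 0.08, with an adjusted p of 0.12 in limma, and 0.0468 after cyclic loess.

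Ppp3ca was lower at 12 h after both upward steps. At 12 h after the 300 to 600 step the arrays read 9.07, 8.93 and 8.98, all below those of steady 300, with a change of −0.38 ± 0.08 (adjusted p = 2.23e-04 in limma). By 24 h they read 9.23, 9.21 and 9.19 and by 48 h 9.27, 9.34 and 9.32. These times lay closer to steady 300, and neither passed the test (adjusted p = 0.158 and 0.692 in limma). After the 600 to 900 step Ppp3ca changed by −0.26 ± 0.08 at 12 h (adjusted p = 0.00585 in limma) and by −0.29 ± 0.08 at 24 h (adjusted p = 0.00423 in limma). The 24 h arrays, at 8.98, 8.91 and 8.86, did not overlap those of steady 600. The 12 h fall lost its call after cyclic loess (−0.13, adjusted p = 0.146), with centred arrays (0.0508) and with the compared arrays alone in the fit (0.0748). Without replicate 9 at that time it was −0.33 (adjusted p = 8.39e-04).

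On return to 300 mosmol/kg Ppp3ca read 9.07, 9.18 and 8.97, a rise of 0.25 ± 0.08 over steady 900 (adjusted p = 0.00829 in limma). It lay above all steady 900 arrays and still below all steady 300 arrays. The rise lost its call without steady 900 replicate 3 (adjusted p = 0.0619) or replicate 2 of the return (0.0665). At 3 h after the 300 to 600 step the change was −0.22 ± 0.08 (adjusted p = 0.0189 in limma). This call was lost after quantile normalization (−0.03, adjusted p = 0.765), after cyclic loess (−0.01, 0.915), with the compared arrays alone (0.0818), and without steady 300 replicate 2 (0.0569), steady 300 replicate 3 (0.0584) or 3 h replicate 1 (0.083). Without 3 h replicate 3 it was −0.23 (adjusted p = 0.0222).

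Ranked by group mean, Ppp3ca ran from 8.82 ± 0.11 (SD, n = 3) in steady 900 through the 600 to 900 cultures at 24 h and 12 h, the 300 to 600 culture at 12 h, the returned culture, the 3 h culture, steady 600, and the 24 h and 48 h cultures to 9.37 ± 0.04 (SD, n = 3) in steady 300. No neighbours in that order differed in the test (adjusted p from 0.397 to 0.959 in limma).

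Ppp3cb and Ppp3cc, the beta and gamma isoforms, moved little. Ppp3cb read 8.65, 8.52 and 8.43 in steady 600 and 8.20, 8.15 and 8.40 at 12 h after the 600 to 900 step, without overlap, a change of −0.28 ± 0.09 (adjusted p = 0.019 in limma). That single call of Ppp3cb was lost after quantile normalization (adjusted p = 0.0509), cyclic loess (0.0895) and centring (0.0775). It was also lost with the compared arrays alone (0.0756) and without steady 600 replicate 1 (0.107) or replicates 1 and 2 of the 12 h culture in turn (0.0676 and 0.0946). Without replicate 9 the change was −0.36 (adjusted p = 0.00487).

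Ppp3cc read 8.63, 8.76 and 8.66 in steady 300 and 8.19, 8.14 and 8.79 at 3 h. The replicate 3 array lay above all steady 300 arrays and the other 3 h arrays below them. The change was −0.31 ± 0.13 with an adjusted p of 0.0496 in limma, and without replicate 3 it was −0.52 (3.94e-04). With any 1 other array of either group left out the call was lost (adjusted p = 0.0659, 0.143 and 0.0845 for the steady 300 arrays, 0.236 and 0.264 for the 3 h arrays). It was also lost after quantile normalization (−0.14, 0.341) and cyclic loess (−0.11, 0.472). Ppp3cb at 3 h was −0.18 ± 0.09 (adjusted p = 0.129 in limma) and became −0.31 (0.00536) without replicate 3. In steady 900 against steady 300, Ppp3cc changed by −0.29 ± 0.13 (adjusted p = 0.0671 in limma), a value that passed after quantile normalization (0.0388), with dim genes left out (0.0482), with trended and robust variance (0.0485) and with the compared arrays alone (0.00534).

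Ppp3r1 encodes calcineurin B, the calcium-binding regulatory subunit that each catalytic subunit needs. It was higher at higher steady osmolality and dipped at 3 h. The arrays read 9.49, 9.41 and 9.44 in steady 300, 9.70, 9.65 and 9.59 in steady 600 and 9.80, 9.79 and 9.76 in steady 900, and the 3 cultures did not overlap. From steady 300 to steady 900 Ppp3r1 rose by 0.34 ± 0.07 (95% interval 0.19 to 0.49, adjusted p = 3.95e-04 in limma), or 1.26-fold. Over the same cultures Ppp3ca fell, so the levels of the regulatory and of this catalytic subunit moved in opposite directions.

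The step from steady 300 to steady 600 was smaller, at 0.20 ± 0.07 (adjusted p = 0.0439 in limma). This call was lost with centred arrays (adjusted p = 0.0583), without any 1 of the steady 300 arrays (0.0609, 0.134 and 0.0995) and without steady 600 replicate 1 (0.156) or replicate 2 (0.0974). From steady 600 to steady 900 the change was 0.14 ± 0.07 (adjusted p = 0.216 in limma), and it passed after cyclic loess (0.19, 0.0302).

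At 3 h after the 300 to 600 step the arrays of Ppp3r1 read 9.00, 8.99 and 8.93, below every other array of the series. The change from steady 300 was −0.47 ± 0.07 (adjusted p = 9.39e-06 in limma), a 1.39-fold fall. It stayed called after quantile normalization (−0.29, adjusted p = 0.00114) and cyclic loess (−0.26, 0.00223), though smaller by over 1.5 times, and was −0.45 without 3 h replicate 3. By 12 h the arrays had risen again to 9.38, 9.37 and 9.35, 0.39 ± 0.07 above 3 h (adjusted p = 8.98e-05 in limma), and 0.37 above it without 3 h replicate 3 (4.33e-04). At 24 h and 48 h they read 9.54, 9.48 and 9.47 and 9.61, 9.61 and 9.56, changes of 0.05 ± 0.07 and 0.15 ± 0.07 from steady 300 that did not pass (adjusted p = 0.713 and 0.171 in limma).

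At 12 h after the 600 to 900 step Ppp3r1 read 9.33, 9.29 and 9.64, where replicate 9 lay within the range of steady 600 and the other arrays below it. The change was −0.23 ± 0.07 (adjusted p = 0.0161 in limma) and −0.34 (5.63e-05) without that array. It lost its call after quantile normalization (−0.13, 0.146), cyclic loess (−0.08, 0.396) and centring (−0.16, 0.0852). The same held with the compared arrays alone (0.169), and without steady 600 replicate 1 (0.0695) or replicates 1 and 2 of the 12 h culture in turn (0.0928 and 0.124). After the return the arrays stayed high, at 9.71, 9.80 and 9.77, −0.03 ± 0.07 from steady 900 (adjusted p = 0.839 in limma, 95% interval −0.18 to 0.13).

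In order of its group means Ppp3r1 ran from 8.97 ± 0.04 (SD, n = 3) at 3 h to 9.78 ± 0.02 (SD, n = 3) in steady 900. Between them came the 12 h culture, the 600 to 900 culture at 12 h, steady 300, the 24 h and 48 h cultures, steady 600, the 600 to 900 culture at 24 h and the returned culture. The first gap alone separated neighbours, the 3 h culture from the 12 h culture.

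Rcan1 and Rcan2 encode small proteins that bind calcineurin and dampen it. Because Rcan1 is a known NFAT target, the 250 bases before the starts of both genes are shown with every match to GGAAA, the core that NFAT proteins bind, in capitals. Where the match lies on the other strand it reads TTTCC. The sequences are those of RefSeq on the GRCr8 build, printed 5′ to 3′ on the gene's strand, from chr11:45118237-45118486 for Rcan1 and chr9:24672190-24672439 for Rcan2, both on the minus strand.
Rcan1: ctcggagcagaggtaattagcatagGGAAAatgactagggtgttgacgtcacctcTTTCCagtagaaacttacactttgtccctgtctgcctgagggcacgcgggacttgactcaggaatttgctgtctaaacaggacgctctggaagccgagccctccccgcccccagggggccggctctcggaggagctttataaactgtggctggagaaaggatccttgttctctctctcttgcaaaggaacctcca
Rcan2: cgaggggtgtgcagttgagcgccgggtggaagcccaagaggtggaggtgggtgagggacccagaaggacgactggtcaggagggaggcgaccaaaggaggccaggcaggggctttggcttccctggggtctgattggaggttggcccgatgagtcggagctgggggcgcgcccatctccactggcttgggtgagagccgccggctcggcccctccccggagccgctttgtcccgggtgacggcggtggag

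The Rcan1 window held 2 matches to GGAAA, at 225 to 221 and at 195 to 191 bases before the start, the second on the other strand. It also held 1 match to TGGAAA, which overlaps the second GGAAA, and 1 to TGANTCA, the AP-1 motif, at 142 to 136 bases before the start. Of 33469 rat promoters of the same length searched on both strands, 56.9% held at least 1 GGAAA and 22.9% at least 2, while 19.7% held TGGAAA and 6.34% held TGANTCA. The Rcan2 window held 0 matches to any of the 3 motifs. Ppp3cb and Ppp3r1 had 1 GGAAA each, and Ppp3ca and Nfatc2 had 0. A match is a run of letters and not a measured binding site.

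Rcan1 rose after the 600 to 900 step and in no other of the 10 comparisons. Its arrays read 7.95, 7.83 and 7.84 in steady 600, 8.19, 8.23 and 8.36 at 12 h and 8.23, 8.20 and 8.14 at 24 h. All 6 arrays of the 600 to 900 cultures lay above every other array of the series. The rise was 0.38 ± 0.09 at 12 h (95% interval 0.19 to 0.58, adjusted p = 0.0016 in limma), or 1.31-fold, and 0.32 ± 0.09 at 24 h (0.0124). Without replicate 9 the 12 h value was 0.33 (adjusted p = 0.0103), and the 24 h call was lost without steady 600 replicate 2 (0.0521).

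The higher Rcan1 level was not shared by cells kept at 900 mosmol/kg. Steady 900 read 7.89, 7.78 and 7.94, overlapping steady 600, with a change of −0.01 ± 0.09 (adjusted p = 0.98 in limma). Cells at 24 h after the step to 900 mosmol/kg exceeded steady 900 by 0.32 ± 0.09 (adjusted p = 0.0159 in limma), 1 of 2 genes that were higher in that comparison beside Nfatc4 (9.47% of all genes were higher). The call was lost without steady 900 replicate 2 (adjusted p = 0.0882) or replicate 1 of the 24 h culture (0.0583). No gene of the set was lower there, 0 of 9, against 8.83% of all genes, with 2 of 9 at an unadjusted p below 0.05 in limma.

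After the 300 to 600 step Rcan1 read 7.73, 7.70 and 7.41 at 3 h, 7.62, 7.99 and 7.72 at 12 h, 8.04, 7.88 and 7.89 at 24 h and 7.82, 7.61 and 7.73 at 48 h, against 7.64, 7.75 and 7.77 in steady 300. The 24 h arrays all lay above steady 300, and the change of 0.21 ± 0.09 did not pass (adjusted p = 0.111 in limma). At the other times the arrays overlapped those of steady 300. From low to high the group means ran 3 h, 48 h, steady 300, the return, 12 h, steady 900, steady 600 and 24 h, followed by the 600 to 900 cultures at 24 h and 12 h. Neighbours differed only between the 300 to 600 and the 600 to 900 culture at 24 h (0.26 ± 0.09, adjusted p = 0.0336 in limma).

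Rcan2 fell with steady osmolality. Its arrays read 6.80, 6.86 and 6.79 in steady 300, 6.53, 6.48 and 6.45 in steady 600 and 6.25, 6.03 and 6.15 in steady 900, with no overlap between the 3 cultures. From steady 300 to steady 900 it fell 1.6-fold, a change of −0.68 ± 0.10 (95% interval −0.89 to −0.46, adjusted p = 3.18e-06 in limma). The changes from steady 300 to steady 600 and from steady 600 to steady 900 were −0.33 ± 0.10 (adjusted p = 0.0175 in limma) and −0.35 ± 0.10 (0.0135). The first lost its call without steady 300 replicate 2 (0.0618) or steady 600 replicate 3 (0.0579), and the second without steady 900 replicate 2 (0.0796). Fibroblast and leukocyte markers fell over the same cultures. From steady 300 to steady 900, 7 of 10 and 10 of 11 were lower (22.3% of all genes). Their part in the fall of Rcan2 was not tested.

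A move to 600 mosmol/kg for up to 48 h did not bring Rcan2 to the level of cells kept there. At 24 h it read 7.15, 6.96 and 7.09, all above the highest steady 300 array, with a change of 0.25 ± 0.10 (adjusted p = 0.0852 in limma). This change passed after quantile normalization (adjusted p = 0.0489), with centring (0.0451) and with the compared arrays alone (0.0224). At 48 h it read 6.95, 6.76 and 7.08, above every steady 600 array, a difference of 0.44 ± 0.10 from steady 600 (adjusted p = 0.00195 in limma). On return to 300 mosmol/kg it read 6.24, 6.18 and 6.38, 0.13 ± 0.10 from steady 900 (95% interval −0.09 to 0.34, adjusted p = 0.384 in limma) and −0.55 ± 0.10 from steady 300 (adjusted p = 7.18e-05 in limma). Ranked by group mean, steady 900, the return, the 600 to 900 cultures at 24 h and 12 h and steady 600 lay below the 3 h culture, steady 300 and the 12 h, 48 h and 24 h cultures. The gap between steady 600 and the 3 h culture was the one between neighbours that passed (0.30 ± 0.10, adjusted p = 0.0193 in limma). Without 3 h replicate 3, left out here after the data were seen, that gap was 0.18 ± 0.11 and lost its call (adjusted p = 0.158).

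**Figure D3:**
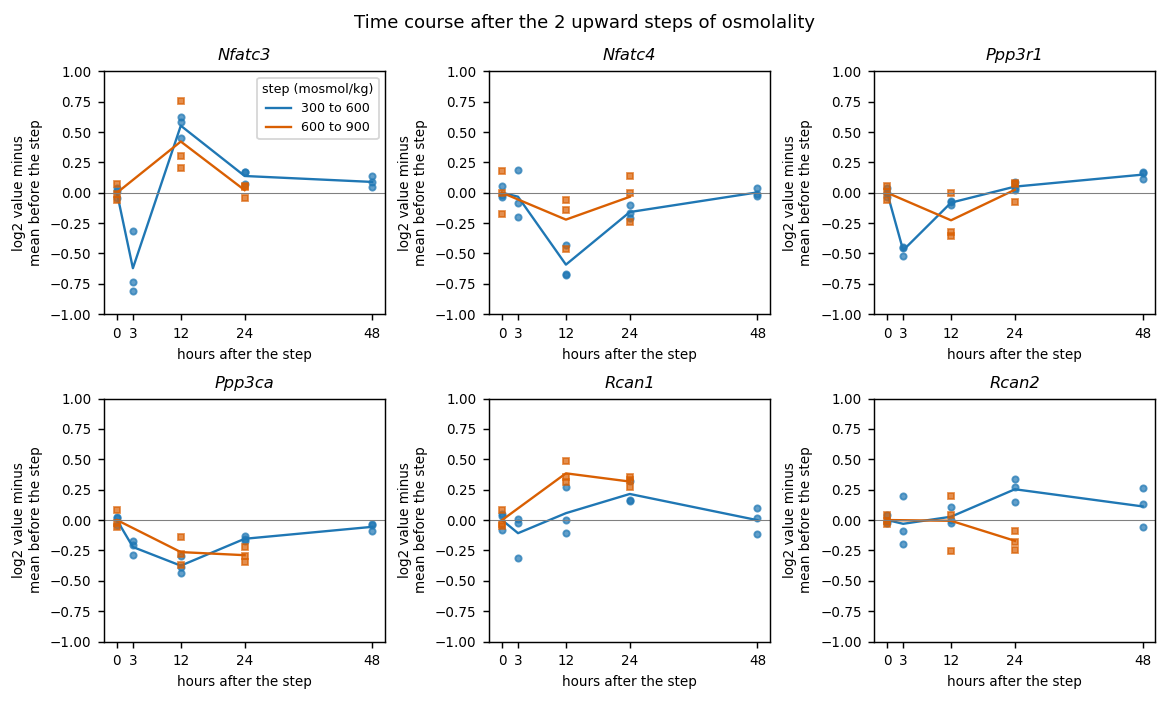
Log2 value minus the mean of the steady culture before the step (vertical axis) against hours after the step (horizontal axis) for 6 genes, with a point per array and a line through the group means for the 300 to 600 and the 600 to 900 step. Nfatc3 dips at 3 h and peaks at 12 h, Nfatc4 dips at 12 h after the 300 to 600 step and is back by 48 h, and Rcan1 is up after the 600 to 900 step.

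Nfatc2, Nfatc3 and Nfatc4 encode the factors that calcineurin dephosphorylates. Nfatc3 had the widest range of group means and moved with time after a step, while the steady cultures overlapped. It read 7.87, 7.84 and 7.78 in steady 300, 7.74, 7.69 and 7.82 in steady 600 and 7.96, 7.86 and 7.70 in steady 900, with changes of −0.08 ± 0.11 and 0.01 ± 0.11 from steady 300 that did not pass (adjusted p = 0.702 and 0.967 in limma). Between steady 900 and steady 300 the 95% interval was −0.22 to 0.24.

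At 3 h after the 300 to 600 step Nfatc3 read 7.02, 7.10 and 7.51, below every steady 300 array. The change was −0.62 ± 0.11 (adjusted p = 6.46e-05 in limma), a 1.54-fold fall. It was −0.77 (adjusted p = 3.18e-06) without replicate 3, the highest of the 3 arrays, and −0.49 and −0.46 after quantile normalization and cyclic loess. At 12 h it read 8.28, 8.41 and 8.45, above every steady 300 array and every 3 h array. The change was 0.55 ± 0.11 from steady 300 (95% interval 0.32 to 0.78, adjusted p = 2.84e-04 in limma) and 1.17 ± 0.11 from 3 h, or 2.26-fold (2.84e-09). Without 3 h replicate 3 the change from 3 h to 12 h was 1.32. The 12 h rise kept its call in every alternative run.

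By 24 h Nfatc3 had come down to 7.90, 8.00 and 8.00, −0.41 ± 0.11 from 12 h (adjusted p = 0.0061 in limma), and by 48 h to 7.97, 7.87 and 7.92. Neither time differed from steady 300 in the test (adjusted p = 0.453 and 0.669 in limma).

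After the 600 to 900 step Nfatc3 was again high at 12 h, at 7.96, 8.06 and 8.51, and at 7.81, 7.71 and 7.80 at 24 h. The 12 h arrays all lay above steady 600, a rise of 0.42 ± 0.11 (adjusted p = 0.00349 in limma). Replicate 9 was the highest, and without it the rise was 0.25 and lost its call (0.0533). The change from 12 h to 24 h was −0.40 ± 0.11 (adjusted p = 0.0066 in limma), and −0.23 without replicate 9 (0.0884). With the compared arrays alone its adjusted p was 0.0667.

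On return to 300 mosmol/kg Nfatc3 read 7.55, 7.60 and 7.41, below all steady arrays, and fell by 0.32 ± 0.11 from steady 900 (adjusted p = 0.0263 in limma). This call was lost without steady 900 replicate 1 (0.127), steady 900 replicate 2 (0.066) or replicate 9 of the return (0.113). Its difference from steady 300 was −0.31 ± 0.11 (adjusted p = 0.027 in limma), lost with centred arrays (0.0531) and without steady 300 replicate 1 (0.076), steady 300 replicate 2 (0.0641) or replicate 9 of the return (0.116). By group mean Nfatc3 rose from 7.21 ± 0.26 (SD, n = 3) at 3 h through the return, steady 600, the 600 to 900 culture at 24 h, steady 300, steady 900, 48 h, 24 h and the 600 to 900 culture at 12 h to 8.38 ± 0.09 (SD, n = 3) at 12 h. Of the neighbours the 3 h and returned cultures alone differed (0.31 ± 0.11, adjusted p = 0.0208 in limma), although their arrays overlapped. Without 3 h replicate 3 that gap was 0.46 (adjusted p = 7.51e-04). Without replicate 9 of the 600 to 900 culture at 12 h, its gap to the 12 h culture passed as well (−0.38, 0.00456).

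Nfatc4 fell with steady osmolality and had the only change of at least 2-fold among the 10 comparisons, a 2.02-fold fall from steady 300 to steady 900. It read 7.53, 7.44 and 7.46 in steady 300, 6.78, 6.95 and 7.13 in steady 600 and 6.49, 6.44 and 6.46 in steady 900, in 3 ranges without overlap. The change from steady 300 to steady 900 was −1.01 ± 0.11 (95% interval −1.23 to −0.79, adjusted p = 4.36e-09 in limma). It was −0.52 ± 0.11 from steady 300 to steady 600 (3.34e-04) and −0.49 ± 0.11 from steady 600 to steady 900 (8.71e-04). These calls held in every alternative run, the removal of each array included. Fibroblast and leukocyte markers fell over the same cultures. From steady 300 to steady 900, 7 of 10 and 10 of 11 were lower (22.3% of all genes). Their part in the fall of Nfatc4 was not tested.

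The fall was not reversed within 24 h of the return. Nfatc4 then read 6.43, 6.33 and 6.35, below every steady 900 array, a change of −0.09 ± 0.11 from steady 900 that did not pass (adjusted p = 0.576 in limma). Its difference from steady 300 was −1.10 ± 0.11 (adjusted p = 8.93e-10 in limma). Set against steady 300, the returned cells had 1 gene higher, Ppp3r1 (20.4% of all genes), and 4 lower, Ppp3ca, Rcan2, Nfatc3 and Nfatc4 (22.2% of all genes). The fibroblast markers summed to 11.80 to 11.82 after the return, near steady 900, and the leukocyte markers to 10.37 to 10.42. Of these, 9 of 10 and 10 of 11 were lower than in steady 300 (22.2% of all genes). Their part in the level of Nfatc4 was not tested.

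After the 300 to 600 step Nfatc4 dipped and came back. It read 7.28, 7.39 and 7.67 at 3 h, overlapping steady 300, and 6.80, 6.81 and 7.05 at 12 h, below all steady 300 arrays. The 12 h change was −0.59 ± 0.11 (adjusted p = 6.95e-05 in limma), a 1.51-fold fall called in every alternative run. At 24 h it read 7.27, 7.38 and 7.31 and at 48 h 7.45, 7.47 and 7.52, the latter within the range of steady 300 (changes −0.16 ± 0.11 and 0.00 ± 0.11, adjusted p = 0.345 and 0.99 in limma). At 12 h Nfatc3 and Nfatc4 thus stood on opposite sides of steady 300. At that time leukocyte markers summed to 12.61 to 12.96 and fibroblast markers to 13.49 to 13.64, and 5 of 6 endothelial markers were lower than in steady 300 (22.6% of all genes). Their part in the dip of Nfatc4 was not tested.

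Cells moved to 600 mosmol/kg for 48 h and cells kept at 600 mosmol/kg held different amounts of Nfatc4. The 48 h culture was higher by 0.53 ± 0.11 (adjusted p = 4.00e-04 in limma), with no overlap. With Rcan2 it was 1 of 2 genes higher (9.47% of all genes) and 0 of 9 were lower (12.5% of all genes), with 2 at an unadjusted p below 0.05 in limma. Likewise the 600 to 900 culture at 24 h, at 6.71, 6.95 and 7.09, exceeded steady 900 by 0.45 ± 0.11 (adjusted p = 0.00296 in limma). Of the fibroblast markers, 6 of 10 were lower at 48 h than in steady 600 (12.5% of all genes). Also 6 of 10 were higher in the 600 to 900 culture at 24 h than in steady 900 (9.47% of all genes). Their part was not tested.

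After the 600 to 900 step Nfatc4 read 6.89, 6.81 and 6.49 at 12 h, a change of −0.22 ± 0.11 (adjusted p = 0.113 in limma). It passed without steady 600 replicate 1 (−0.31, 0.0414) and without replicate 1 of that culture (−0.30, 0.0485). Without replicate 9, the lowest of the 3 arrays at 12 h, it was −0.10 (adjusted p = 0.515 in limma). At 24 h the change was −0.03 ± 0.11 (adjusted p = 0.876 in limma). Ordered by mean, the return, steady 900, the 600 to 900 culture at 12 h, the 12 h culture, the 600 to 900 culture at 24 h and steady 600 came before the 24 h and 3 h cultures, steady 300 and the 48 h culture. The gap between steady 600 and the 24 h culture was the one that passed (0.37 ± 0.11, adjusted p = 0.0113 in limma). Without replicate 9 the gap between steady 900 and the 600 to 900 culture at 12 h passed too (0.39, 0.00534).

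Nfatc2 was dim, at the 37.4th percentile of mean signal among all genes, and limma called it in 0 of the 10 comparisons and in 0 of all 45 pairs of groups. None of its pairs had an unadjusted p below 0.05 (0 of 45). Its arrays ranged from 5.27 in steady 600 to 5.91 at 3 h, and the change from steady 300 to steady 900 was 0.00 ± 0.13 (95% interval −0.26 to 0.26). By contrast, of the 45 pairs limma called 31 for Nfatc4, 28 for Rcan2, 25 each for Nfatc3 and Ppp3r1, 23 for Ppp3ca, 19 for Rcan1, 4 for Ppp3cc and 3 for Ppp3cb. Over all genes the median was 17 of the 45 pairs, with quartiles of 5 and 27.

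Consecutive times after the 300 to 600 step were also compared. From 3 h to 12 h, 3 genes were called, Ppp3r1, Nfatc3 and Nfatc4, against 40.9% of all genes. Nfatc4 fell by 0.56 ± 0.11 (adjusted p = 1.11e-04 in limma), and the change was −0.45 (0.00184) without 3 h replicate 3. Without 3 h replicate 3 a rise of Ppp3cc passed as well (0.46, 0.00114), and after quantile normalization and cyclic loess a fall of Ppp3ca (0.00125 and 3.18e-04). From 12 h to 24 h, 3 were called, Ppp3ca, Nfatc3 and Nfatc4 (27% of all genes). Nfatc4 rose by 0.43 ± 0.11 (adjusted p = 0.00285 in limma). The rise of Ppp3ca, 0.22 ± 0.08 (adjusted p = 0.0281 in limma), lost its call after quantile normalization (0.0841), after cyclic loess (0.0919) and without any 1 of replicates 2 and 3 at 12 h (0.104 and 0.076) and replicates 1, 2 and 3 at 24 h (0.0846, 0.0634 and 0.0526). From 24 h to 48 h limma called 0 of 9 (2.79% of all genes), with 1 at an unadjusted p below 0.05.

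From 12 h to 24 h after the 600 to 900 step 2 genes were called, Ppp3r1 and Nfatc3, against 32.4% of all genes. Ppp3r1 rose by 0.25 ± 0.07 (adjusted p = 0.00931 in limma), and by 0.36 (3.28e-05) without replicate 9 at 12 h. That rise lost its call after quantile normalization (0.0808) and cyclic loess (0.0509), and without replicate 1 or 2 at 12 h (0.0607 and 0.0813).

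Whether both upward steps acted alike was tested as the difference of the 2 changes. At 12 h limma called 0 of 9 (13.4% of all genes), with 2 at an unadjusted p below 0.05. The changes of Nfatc3 were 0.42 after the 600 to 900 step and 0.55 after the 300 to 600 step, a difference of −0.13 ± 0.16 (adjusted p = 0.689 in limma). For Rcan1 the difference was 0.33 ± 0.13 (adjusted p = 0.113 in limma), and 0.43 (0.0256) without replicate 2 of the 300 to 600 culture. For Nfatc4 it was 0.37 ± 0.15 (0.116), and 0.49 (0.0188) without replicate 9 of the 600 to 900 culture. Without that array the difference of Ppp3r1 also passed (−0.26, 0.0272), from −0.15 ± 0.11 with all arrays (0.432).

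At 24 h limma called 0 of 9 differences (12.9% of all genes), with 1 at an unadjusted p below 0.05. It was that of Rcan2, which changed by −0.17 after the 600 to 900 step and by 0.25 after the 300 to 600 step, a difference of −0.42 ± 0.15 (adjusted p = 0.0563 in limma). This difference passed with dim genes left out (0.0372), with the compared arrays alone (0.00495) and without replicate 2 of the 300 to 600 culture (−0.48, 0.0473).

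Nfat5, the NFAT family member that responds to tonicity and lacks the calcineurin-binding region, was followed beside these genes. Its group means were 8.81, 9.58 and 9.88 in steady 300, 600 and 900 and 8.63 after the return. It rose in the comparison of steady 900 with steady 300 by 1.07 ± 0.11 (adjusted p = 1.68e-09 in limma), where Nfatc4 fell and Nfatc3 did not pass.

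Over the 10 group means Nfatc3 was followed most closely by Zbtb1 (Pearson r = 0.974), Aggf1 (0.973) and Zfp148 (0.970) among all genes. For Nfatc4 the closest were Chrdl2 (r = 0.978), Pofut2 (0.962) and Mllt11 (0.961). A high r does not mean a change of equal size. The group means of Zbtb1, Aggf1 and Zfp148 spanned 1.14, 0.73 and 0.69, against 1.17 for Nfatc3. Those of Chrdl2, Pofut2 and Mllt11 spanned 0.36, 0.65 and 1.76, against 1.11 for Nfatc4. Within the set the highest correlation was that of Rcan2 with Nfatc4 (0.835), followed by Ppp3ca with Nfatc4 (0.773). These are descriptions over 10 points that share the same arrays and scaling.

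Other genes of the pathway were counted from lists of names. The genes named from each list are the 3 with the widest range of group means in these same arrays. That choice favours large changes and small p-values, so they do not stand for their lists. Over the 10 comparisons 9.4% to 20.2% of all genes were higher and 12% to 29.5% lower, and the counts are read beside these shares. Of 13 measured calcineurin partners and regulators, 3 rose and 3 fell in steady 900 against steady 300 (20.2% and 22.3% of all genes), and 1 rose and 4 fell at 3 h (12.1% and 29.5%). In the other 8 comparisons 0 to 4 rose and 0 to 3 fell. Chp2, a calcineurin B homologue, was higher in steady 900 than in steady 300 by 0.91 ± 0.12 (adjusted p = 3.23e-07 in limma). Fkbp1b, a relative of the FK506-binding protein, changed there by −0.62 ± 0.09 (4.95e-07). Fkbp5, a glucocorticoid-responsive immunophilin, was higher in steady 900 (0.64 ± 0.10, adjusted p = 3.45e-06 in limma) and lower at 24 h after the 300 to 600 step (−0.91 ± 0.10, 2.50e-08).

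Of 12 genes for NFAT kinases and nuclear transport, 3 rose and 2 fell at 12 h after the 300 to 600 step (11.9% and 22.6% of all genes), and 6 rose and 2 fell at 12 h after the 600 to 900 step (12.5% and 25.3%). The last counts were the same without replicate 9. In the other 8 comparisons 0 to 3 rose and 0 to 4 fell. Xpo1, the exportin that carries NFAT out of the nucleus, rose at those times by 0.85 ± 0.11 (adjusted p = 2.67e-07 in limma) and 0.74 ± 0.11 (1.99e-06), the latter 0.52 (1.69e-06) without replicate 9. Gsk3a, a kinase of the GSK3 family that phosphorylates NFAT, rose by 0.44 ± 0.10 (8.00e-04) and 0.48 ± 0.10 (2.61e-04). It also rose at 3 h, by 0.41 (adjusted p = 0.0016 in limma), and by 0.22 (0.0186) without 3 h replicate 3. Its group means were 9.05 at 24 h and 9.07 at 48 h after the 300 to 600 step, against 8.82 in steady 300. A high level of Xpo1 was not limited to the 12 h times either. After the return its group mean was 10.43, against 9.93 in steady 900, and that of Gsk3a was 8.39 against 8.76. Lrrk2, a kinase known to hold NFAT in the cytoplasm through a complex with a noncoding RNA, fell by 0.82 ± 0.10 from steady 300 to steady 900 (adjusted p = 5.41e-08 in limma).

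Of 11 measured genes of calcium release and store-operated entry, 7 rose and 0 fell at 3 h (12.1% and 29.5% of all genes), and 4 rose and 3 fell in steady 900 against steady 300 (20.2% and 22.3%). Without 3 h replicate 3 the 3 h counts were 5 and 2 (11% and 31.3%). In the other 8 comparisons 0 to 5 rose and 2 to 4 fell. Itpr2 and Itpr3 encode receptors that release calcium from stores, and Itpr2 rose from steady 300 to steady 900 by 1.50 ± 0.09 (adjusted p = 1.91e-14 in limma) and fell by 1.26 ± 0.09 on return (4.32e-12). Itpr3 rose by 1.32 ± 0.10 (2.55e-12) and on return changed by −0.84 ± 0.10 (5.64e-08). Trpc6, a calcium-permeable channel whose gene is a known NFAT target in other cells, fell by 2.28 ± 0.12 from steady 300 to steady 900 (adjusted p = 7.36e-16 in limma), and its change on return was −0.02 ± 0.12 (0.917).

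Of 11 measured genes known as NFAT targets, mostly from T cells, 0 rose and 5 fell in steady 600 against steady 300 (13.7% and 13.4% of all genes), and the same counts held for steady 900 (20.2% and 22.3%). Leukocyte markers fell in those comparisons, 9 and 10 of 11, and their part was not tested. At 3 h, 5 of the targets rose and 1 fell (12.1% and 29.5% of all genes), or 6 and 1 without 3 h replicate 3, and in the other 7 comparisons 0 to 3 rose and 0 to 3 fell. Ptgs2, cyclooxygenase 2, rose after both steps, by 2.82 ± 0.09 at 24 h after the 300 to 600 step (adjusted p = 3.29e-19 in limma) and by 3.91 ± 0.09 at 12 h after the 600 to 900 step (9.35e-23). In steady 900 it was lower than in steady 300 (−1.26 ± 0.09, 1.71e-12). Tnf, an inflammatory cytokine, fell by 2.07 ± 0.16 from steady 300 to steady 600 (adjusted p = 1.59e-11 in limma) and rose at 12 h after the 600 to 900 step by 1.28 ± 0.16 (1.86e-07). Csf2, the gene of the cytokine GM-CSF, fell by 2.59 ± 0.16 from steady 300 to steady 600 (1.53e-13). Its mean signal in steady 600 was low, at 4.14, and its change at 12 h after the 600 to 900 step was 0.07 ± 0.16 (0.79).

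Of 6 measured genes for other transcription regulators that calcineurin dephosphorylates, 0 rose and 5 fell on return against steady 900 (19.3% and 18.5% of all genes), with a median change of −0.40 against −0.02 over all genes. Tfeb, the lysosomal regulator, fell by 0.59 ± 0.09 (adjusted p = 5.46e-06 in limma). Mef2d, a factor of muscle and neuronal genes, fell by 0.50 ± 0.12 (0.00116), and the CREB coactivator gene Crtc2 fell by 0.37 ± 0.10 (0.00306). In the other 9 comparisons 0 to 2 rose and 0 fell. Tfeb rose at 24 h after the 600 to 900 step by 0.39 ± 0.09 (0.00166).

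**Figure D4:**
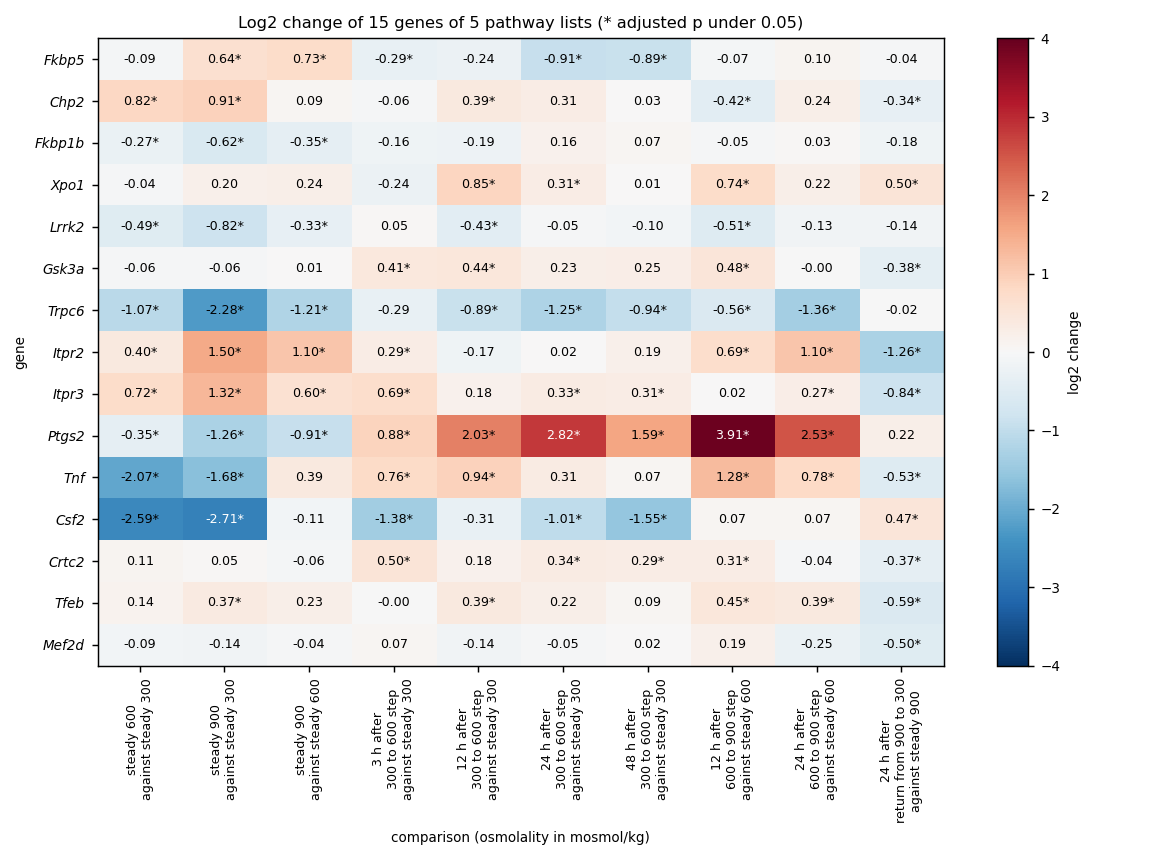
Log2 change (colour and printed value) of 15 genes around calcineurin and NFAT (vertical axis) in 10 comparisons (horizontal axis, osmolality in mosmol/kg), with an asterisk where the adjusted p was below 0.05. Ptgs2 is higher at every time after both upward steps, and Tfeb, Mef2d and Crtc2 are lower on return.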

How the data were processed

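Expression was measured on 30 arrays in 10 groups of 3, with total RNA from primary rat collecting duct cells. The deposited values are log2 signals made by the authors with RMA, per the submitters' processing notes. The sources used here give neither the version nor the software. RMA scales arrays to each other, so a shift common to most genes is removed in part. Names of probe sets came from the platform annotation. Of 29170, 15310 had 1 symbol, 323 several and 13537 none, which left 14506 genes, each on its single-symbol probe set of highest mean.

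The comparisons used limma 3.58.1 (R 4.3.3), with a mean for each group fitted to all 30 arrays and eBayes, with Benjamini-Hochberg adjustment at 0.05. The scripts were tested on simulated data. With 3 arrays a group, their number limits the precision. The genes and lists were chosen with earlier results of these data known. All measured members are described, with 3 genes of widest range from each pathway list and the 3 genes most like Nfatc3 and Nfatc4. Promoters of 250 bases came from RefSeq (GRCr8), where 6 of the 9 genes were matched.

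Alternatives were quantile, cyclic loess and median scaling, leaving out genes under the 30th percentile of mean signal, averaging a gene's probe sets, trended and robust variance, only the compared arrays, the replicate number as a block and each array left out. Gaps between neighbouring groups and the pathway lists were also computed without each of 2 arrays that stood apart, an alternative chosen after the data were seen.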

Additional observations from a re-analysis of the deposited data

How the results depend on the processing

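No called value of a member changed sign in any alternative. Over 2502 values of single members under an alternative, 2407 kept their direction and side of the threshold, 68 lost a call and 27 gained one. At 3 h the number of members called, 4 with the deposited scaling, was 2 after quantile normalization, 2 after cyclic loess and 2 with only the compared arrays, and 2 to 5 with an array left out. At 24 h after the 300 to 600 step it was 0, and 1 after quantile normalization, 1 with median centring and 1 with only the compared arrays, in each case Rcan2. At 12 h after the 600 to 900 step it was 5, and 3 after quantile normalization, 2 after cyclic loess, 2 with median centring and 2 with only the compared arrays, and 3 to 5 with an array left out. With an array left out it was 1 to 2 in steady 600 against steady 300 (3 with all), 1 to 2 at 24 h after the 600 to 900 step (2 with all) and 1 to 2 on return (2 with all). The cause of these shifts was not tested.

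No pairing of samples by replicate number was found by the rule used. In no comparison did all same-numbered arrays deviate together with a correlation over 0.1 (range from −0.10 to 0.24). Each comparison held only 2 or 3 such pairs, and the labels do not say what the numbers mark. The check therefore cannot show that the samples were unpaired. With the replicate block the 24 h difference of Rcan2 between the upward steps passed (−0.45, adjusted p = 0.0381 in limma), and 170 of 171 values kept their side. In steady 900 against steady 300 the block called 4 members, as without it.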

Other observations

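Ppp3r1 had a second, dimmer probe set with that symbol alone (mean 4.85), which was not used above. It was higher in steady 600 than in steady 300 by 0.32 ± 0.09 (adjusted p = 0.00507 in limma), as the brighter one was. Some of their other calls were not alike. At 3 h after the 300 to 600 step the dimmer one changed by −0.20 ± 0.09 from steady 300 (adjusted p = 0.0709 in limma), where the brighter one fell by 0.47 ± 0.07 (9.39e-06). At 48 h it lay below steady 600 (−0.26 ± 0.09, 0.0289), where the brighter one did not pass (−0.05 ± 0.07, 0.72). At 12 h after the 600 to 900 step both were lower, the dimmer one with a change of −0.32 ± 0.09 (0.00385).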
